A study of Mus musculus with 30 samples.

Results

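Transcripts of 10 genes for red cell transcription factors and their partner proteins (*Gata1*, *Klf1*, *Tal1*, *Nfe2*, *Zfpm1*, *Lmo2*, *Ldb1*, *Gfi1b*, *Bcl11a* and *Hemgn*) were measured in differentiating murine erythroleukemia (MEL) cells. The genes were chosen by name for their known roles in red cell development, with earlier results of these data known, and were 10 of the 54532 genes in the count table. MEL cells are a mouse erythroleukemia line that starts to make hemoglobin when grown with dimethyl sulfoxide (DMSO). RNA was sequenced from both a WT and an Abcb10-null culture series at day 0, before treatment, and then on days 2 and 5 of a course in which the medium held DMSO at 1.5%, with 5 libraries for each genotype and day and 30 in all. Both genotypes were grown in the same DMEM-based medium. Abcb10 is a transporter of the inner mitochondrial membrane, and the comparison asked what its loss did to the program of differentiation. The Abcb10-null libraries came from 1 CRISPR/Cas9 clone, made with guides that delete parts of *Abcb10* exons, so a difference between genotypes is also a difference between that clone and the WT cells. The labels call the 5 libraries of a group biological replicates without naming separate clones, and the tests measure the spread between those libraries.

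GATA1 is a zinc finger protein that binds GATA sites in DNA and switches on most genes of the red cell, while it helps to switch off genes of earlier progenitors. In red cell precursors it works with TAL1, a basic helix-loop-helix protein that binds E-boxes, and LMO2 and LDB1 hold both on DNA as bridging proteins without contacting DNA themselves. KLF1 binds CACCC boxes in the promoters of globin, membrane and heme genes, and NFE2 pairs with small MAF proteins at the globin locus control region. ZFPM1 (FOG1) binds GATA1 and brings in repressor complexes, GFI1B is a repressor that recruits the histone demethylase KDM1A, BCL11A represses embryonic and fetal globin genes, and HEMGN is a nuclear protein that rises in red cell precursors.

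In GRCm38, *Gata1* lies on the minus strand of chrX:7959260-7978071 and *Klf1* on the plus strand of chr8:84901928-84905291. *Tal1* (chr4:115056426-115071755, plus strand) and *Hemgn* (chr4:46393989-46413506, minus strand) share a chromosome, as do *Lmo2* (chr2:103957986-103981878, plus strand) and *Gfi1b* (chr2:28609450-28621982, minus strand). *Nfe2* lies at chr15:103248212-103258403 on the minus strand, *Ldb1* at chr19:46031570-46045214 on the minus strand, *Zfpm1* at chr8:122282141-122337251 on the plus strand and *Bcl11a* at chr11:24078056-24174123 on the plus strand. Merged exons ranged from 1530 bases in *Klf1* to 13175 in *Bcl11a*, and all values below are counts over whole genes.

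Library totals ranged from 9906783 to 20157768 counts, and all 10 members had more than 3 counts in every library, the lowest count being 111. Levels are given in CPM, counts per 1000000 of a library's scaled total. *Abcb10* itself lay between 67.2 and 79.4 CPM in the Abcb10-null libraries and between 112 and 126 CPM in WT at day 0, and between 177 and 237 against 1152 and 1264 CPM at day 5. The groups did not overlap at either day, but reads of *Abcb10* were present in the null cells, and a count over the whole gene does not measure the edited bases. The summed level of 9 erythroid markers had a median of 1412 CPM (WT) and 1505 CPM (null) at day 0, and of 20100 and 5291 CPM at day 5, in libraries whose globin RNA had been depleted. Gene by gene, 4 of the 7 markers tested at day 0 were lower in null cells and 1 was higher. The median log2 difference of the 7 was -1.35. All 3 globin genes tested were among the lower ones (-3.21 to -2.29), as counts left by the depletion. In that comparison 36.0% of all genes tested differed, at an edgeR adjusted p under 0.05. Summed markers of myeloid cells stayed between 17.8 and 72.5 CPM, and those of megakaryocytes between 155 and 606 CPM. Those of mast cells and lymphocytes were at most 7.79 CPM. At day 0 all 3 tested mast cell markers were higher in null cells. The mast cell sum was 3.4 to 6.5 CPM there, against 0.567 to 1.28 CPM in WT. Of myeloid markers 3 of 4 tested were higher and 1 lower, and of megakaryocyte markers 2 of 5 were higher and none lower. In bulk RNA a smaller share of maturing cells and less RNA per cell cannot be told apart. Some libraries stood apart from the rest of their group in the levels of several members or markers: WT replicates 1 and 2 at day 2, Abcb10-null replicates 2 and 5 at day 2, and WT replicates 2 and 5 at day 5. The 2 null libraries of day 2 had summed erythroid marker levels of 1349 and 1346 CPM, against 2012 to 2288 CPM in the other 3. WT replicate 5 at day 5 had a summed erythroid marker level of 9940 CPM, against 18720 CPM or more in the other 4 libraries of that group.

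Levels of different genes were compared per kilobase of merged exon. In undifferentiated WT cells *Klf1* was the most abundant of the 10 at 219 ± 17.5 CPM per kilobase (SD, n = 5), followed by *Gata1* at 107 ± 8.88 and *Lmo2* at 89.1 ± 6.06. The ranges of *Gata1* and *Lmo2* overlapped, while those of *Klf1* and *Gata1* did not. *Bcl11a* was the lowest in all 6 groups, between 0.742 and 2.75 CPM per kilobase on average. By day 5 the order in WT cells was *Klf1* at 281 ± 38.7, *Hemgn* at 192 ± 42.0, *Tal1* at 165 ± 26.2 and *Gata1* at 137 ± 7.29 CPM per kilobase, with overlapping ranges between each of these neighbours. In Abcb10-null cells at day 5 the 4 genes led again, but *Klf1* stood at 100.5 ± 10.4, *Gata1* at 86.3 ± 15.4, *Tal1* at 63.9 ± 9.60 and *Hemgn* at 62.8 ± 15.5 CPM per kilobase. Ranges overlapped between each of these neighbours too.

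**Figure D1:**
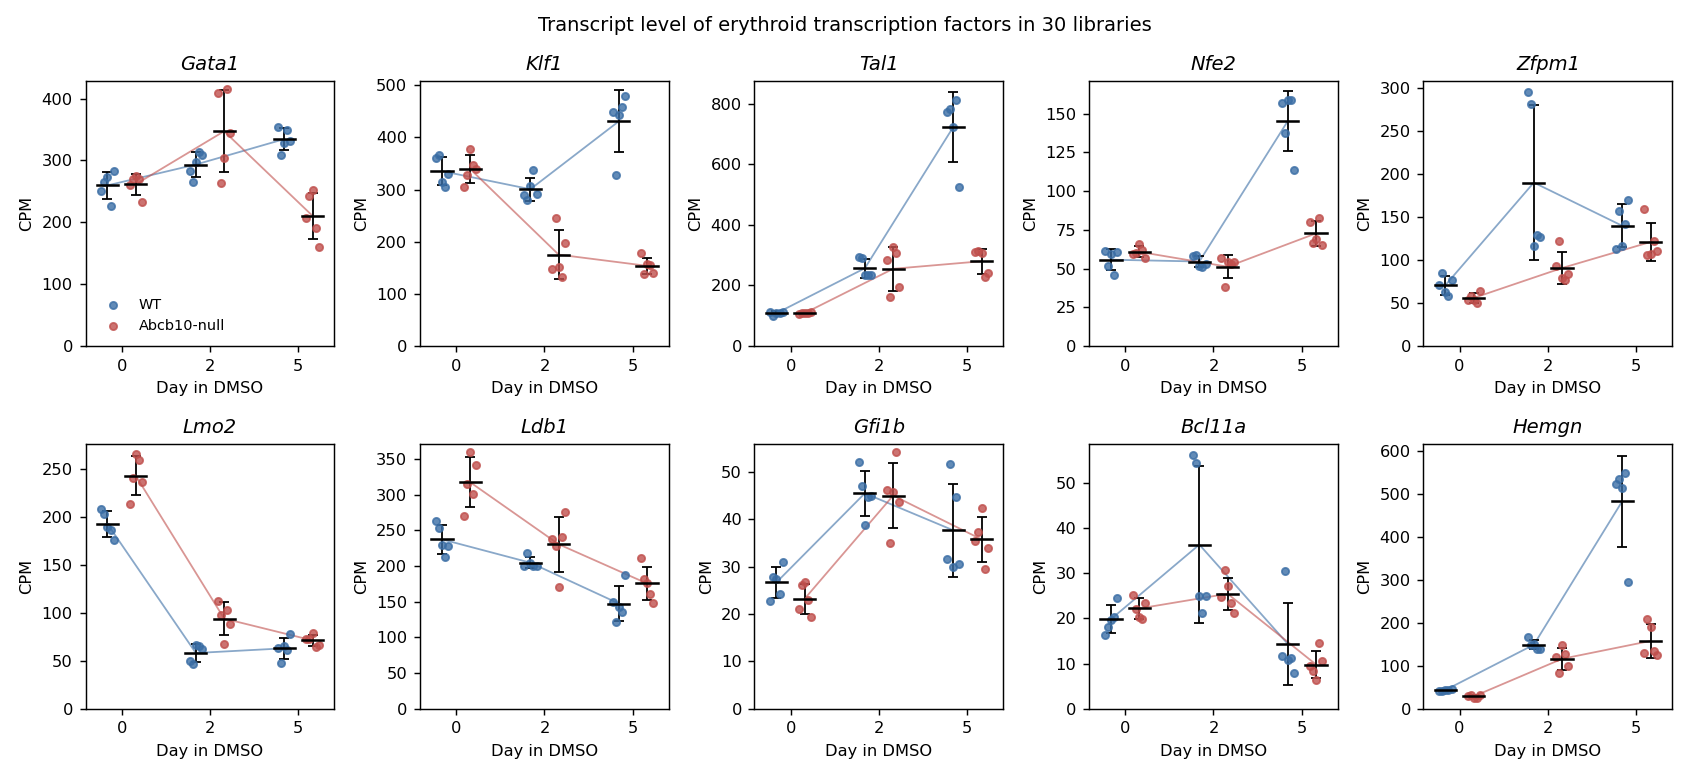
CPM of each of the 10 genes (y axis) by day in DMSO (x axis), 1 point per library, with bars for the mean and SD of 5 libraries in WT (blue) and Abcb10-null cells (red). At day 5 the 5 null libraries lie under all 5 WT libraries for *Gata1*, *Klf1*, *Tal1*, *Nfe2* and *Hemgn*, and the groups overlap for the other 5 genes.

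In WT cells 7 of the 10 transcripts were higher after 5 days in DMSO than at day 0, and 2 were lower. No untreated culture was sequenced after day 0, so DMSO and time in culture cannot be told apart. A gene was called where edgeR's quasi-likelihood test gave an adjusted p under 0.05. Of all genes tested, 71.2% were called in the comparison of day 5 with day 0, 36.5% as higher and 34.7% as lower, so the 9 calls stand on a background of wide change. *Hemgn* rose most, from 43.5 ± 1.93 to 482 ± 105 CPM (log2 fold change 3.47, SE 0.16, edgeR adjusted p = 1.33e-09). *Tal1* rose from 108 ± 6.02 to 723 ± 115 CPM (2.74, SE 0.12, edgeR adjusted p = 1.12e-09). The gain of both was spread over the course: *Hemgn* rose by 1.77 (SE 0.07) and *Tal1* by 1.24 (SE 0.09) on the log2 scale between days 0 and 2, and by 1.70 (SE 0.16) and 1.50 (SE 0.14) between days 2 and 5.

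*Nfe2* rose late in WT cells. It was 55.7 ± 6.88 CPM at day 0 and 54.6 ± 3.76 CPM at day 2, a log2 difference of -0.03 (SE 0.10) that was not called, and reached 145 ± 19.6 CPM at day 5 (1.42 against day 2, SE 0.12, edgeR adjusted p = 7.56e-06). *Klf1* and *Gata1*, already abundant at day 0, moved little. *Klf1* rose by 0.36 (SE 0.11, edgeR adjusted p = 0.00852) and *Gata1* by 0.36 (SE 0.08, edgeR adjusted p = 0.00169) on the log2 scale between days 0 and 5. *Zfpm1*, the GATA1 cofactor, rose by 0.98 (SE 0.14), and *Gfi1b* by 0.50 (SE 0.17, edgeR adjusted p = 0.0165).

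The bridging proteins moved the other way in WT cells. *Lmo2* fell from 193 ± 13.1 to 58.2 ± 9.10 CPM by day 2 (-1.73, SE 0.11, edgeR adjusted p = 7.37e-08) and was 63.1 ± 10.7 CPM at day 5. *Ldb1* fell by 0.69 on the log2 scale by day 5 (SE 0.11, edgeR adjusted p = 0.000104). A small part of *Ldb1*, 3.84% of its exon bases, is shared with *Pprc1* on the opposite strand. *Bcl11a* was not called between days 0 and 5 (-0.46, SE 0.30), and its day 2 rise of 0.87 (SE 0.26) rested on replicates 1 and 2, at 56.0 and 54.4 CPM against 21.1 to 24.96 CPM in the other 3 libraries; without both, the difference was 0.29 (edgeR adjusted p = 0.0686). Against day 0, 7 members were called at day 2 (62.2% of all genes tested), and between days 2 and 5 the count was 6 (33.4% of all genes). The comparisons with day 0 share its libraries.

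The 2 genotypes differed most at day 5, where 5 of the 10 transcripts were lower in Abcb10-null cells and none was higher. In that comparison 37.6% of all genes tested were called, 19.8% as higher and 17.8% as lower, and 23.9% had groups that did not overlap. The 5 were *Klf1*, *Tal1*, *Hemgn*, *Nfe2* and *Gata1*: 2 DNA-binding regulators that were abundant before treatment and 3 genes that rose strongly in WT cells. The median log2 difference over the 10 members was -0.63, against -0.02 over all genes tested.

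*Klf1* was 448, 328, 442, 457 and 478 CPM in the 5 WT libraries and 178, 139, 157, 155 and 139.7 CPM in the 5 Abcb10-null libraries. Every null library lay under 179 CPM and every WT library over 327 CPM. The log2 fold change was -1.49 (SE 0.12, edgeR adjusted p = 2.64e-06), and it lay between -1.59 and -1.46 when single libraries were left out. Since *Klf1* did not differ at day 0, at 335 ± 26.7 CPM against 339 ± 26.9 CPM (95% interval of the log2 difference, by the normal quantile of the standard error, -0.12 to 0.14), the gap opened during differentiation.

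*Tal1* was 772, 783, 724, 811 and 525 CPM in the WT libraries at day 5, and 309, 314, 308, 229 and 240.0 CPM in the null libraries. *Hemgn* was 522, 533, 512, 548 and 295 CPM in WT, and 129.5, 209.6, 189, 135 and 124 CPM in the null libraries. For both genes the lowest WT library was replicate 5, the library with the low erythroid marker sum, and it still lay above all null libraries. The log2 fold change was -1.38 for *Tal1* (SE 0.15, edgeR adjusted p = 2.50e-05) and -1.62 for *Hemgn* (SE 0.20, edgeR adjusted p = 6.83e-05). *Nfe2* showed the same order, with 157, 138, 159, 159 and 114 CPM in WT and 80.0, 66.8, 69.1, 82.6 and 65.0 CPM in null libraries (-1.01, SE 0.12, edgeR adjusted p = 6.49e-05).

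*Gata1* differed less than these 4. Its level was 354, 309, 329, 349.6 and 332 CPM in WT and 207, 242, 252, 191 and 160.4 CPM in null libraries. All null values lay under all WT values, with a log2 fold change of -0.68 (SE 0.12, edgeR adjusted p = 0.000947). Without WT replicates 2 and 5, an alternative chosen after seeing the data, all 5 genes were still called, with log2 fold changes from -1.77 for *Hemgn* to -0.74 for *Gata1*. The summed erythroid markers fell with these factors, from 9940 to 23000 CPM in WT to 4677 to 6136 CPM in null libraries, and the part that the stage of the cells plays in the difference was not tested.

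The bases before the transcription start of 4 genes that were lower in null cells at day 5 are shown as a description. They are the 250 bases before the start in the RefSeq promoter table (GRCm38.p6), written 5′ to 3′ along the gene's strand, with matches on either strand to the GATA letters in capitals. Those letters were AGATAA, the same word ending in G (AGATAG), and both again with T as the first letter (TGATAA, with TGATAG as the form ending in G).
Gata1 (chrX:7967911-7968160, minus strand): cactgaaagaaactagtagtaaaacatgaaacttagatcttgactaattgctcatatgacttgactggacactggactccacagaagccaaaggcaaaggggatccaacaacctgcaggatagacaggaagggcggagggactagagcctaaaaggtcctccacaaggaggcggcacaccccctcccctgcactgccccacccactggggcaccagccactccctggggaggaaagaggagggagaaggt
Klf1 (chr8:84901732-84901981, plus strand): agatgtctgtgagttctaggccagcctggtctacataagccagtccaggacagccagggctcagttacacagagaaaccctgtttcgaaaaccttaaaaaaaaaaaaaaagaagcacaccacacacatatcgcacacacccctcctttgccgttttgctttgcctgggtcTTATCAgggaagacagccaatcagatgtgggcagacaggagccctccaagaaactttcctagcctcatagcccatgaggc
Tal1 (chr4:115056176-115056425, plus strand): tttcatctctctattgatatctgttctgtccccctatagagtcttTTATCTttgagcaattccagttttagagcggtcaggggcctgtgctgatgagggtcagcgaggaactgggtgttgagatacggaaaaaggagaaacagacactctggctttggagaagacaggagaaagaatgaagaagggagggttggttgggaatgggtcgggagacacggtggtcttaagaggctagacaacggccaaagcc
Hemgn (chr4:46404184-46404433, minus strand): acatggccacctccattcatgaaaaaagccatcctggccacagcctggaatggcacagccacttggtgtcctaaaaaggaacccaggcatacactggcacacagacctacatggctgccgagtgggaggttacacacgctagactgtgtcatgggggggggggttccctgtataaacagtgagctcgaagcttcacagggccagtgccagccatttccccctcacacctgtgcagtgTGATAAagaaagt

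*Klf1* held 1 GATA match, 74 bases before its start, *Tal1* 1 match, 199 bases before the first of its 2 listed starts, and *Hemgn* 1 match, 7 bases before its start. *Gata1* had no GATA match in this window. The starts are those of RefSeq, and for *Gata1*, *Klf1* and *Hemgn* they lie inside the gene intervals given above. Of all 32851 windows in the table, 26.5% held a GATA match, 45.9% a match to the CACCC letters CCNCNCCC and 66.2% an E-box, CANNTG, each searched on both strands, where the letters of different motifs may overlap. The table held 11 windows for 8 of the 10 members, of which 5, 9 and 6 had a match to the GATA, CACCC and E-box letters. *Gata1* held 3 matches to CCNCNCCC and *Hemgn* held 4, while *Klf1* and *Tal1* held none in the windows shown. The 4 of *Hemgn* overlap each other in a run of G. The shorter word CACCC, which was not searched for, stands in the *Gata1* and *Klf1* windows. Its reverse complement, GGGTG, stands in the *Tal1* window, and the *Hemgn* window holds neither. The window before the other *Tal1* start, not shown, held 4 matches to CCNCNCCC, some of them overlapping, and 0 GATA matches. Which start the cells used was not measured. These are matches of letters, not sites where a factor was measured. *Nfe2* and *Lmo2* had no entry.

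The other 5 members were not called at day 5. *Lmo2* was 63.1 ± 10.7 CPM in WT and 71.4 ± 5.60 CPM in null cells, with a 95% interval of the log2 difference from -0.07 to 0.41. The interval was -0.50 to 0.07 for *Zfpm1* and -0.43 to 0.26 for *Gfi1b*, at 37.7 ± 9.87 CPM in WT and 35.8 ± 4.72 CPM in null cells. These intervals leave out a difference of the size seen for *Klf1*, *Tal1*, *Hemgn* or *Nfe2*. *Ldb1* had an interval from -0.00 to 0.49. *Bcl11a* was the least certain, with an interval from -1.26 to 0.10, since WT replicate 2 stood at 30.4 CPM and the other 4 WT libraries between 7.86 and 11.6 CPM.

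**Figure D2:**
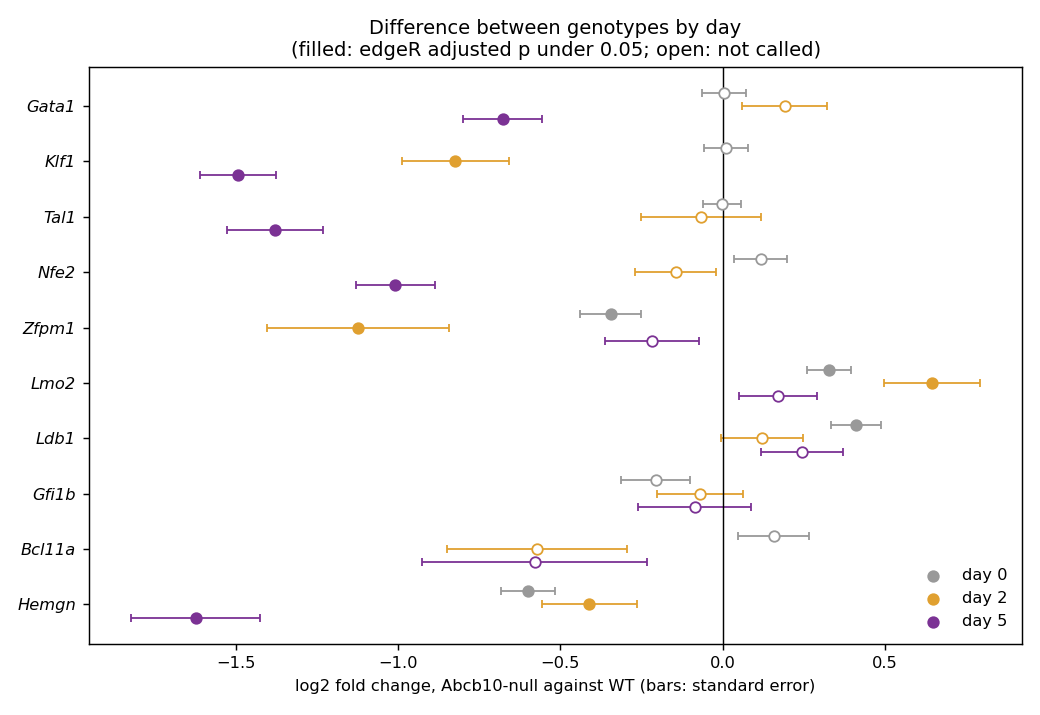
log2 fold change of each gene in Abcb10-null against WT cells (x axis), with bars of 1 standard error, at day 0 (grey), day 2 (orange) and day 5 (purple); filled points were called by edgeR. *Gata1*, *Klf1* and *Tal1* lie at 0 at day 0, and the 5 filled day 5 points lie between -1.62 and -0.68.

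Before treatment 4 members already differed between genotypes, in a comparison where 36.0% of all genes tested were called. The groups of 3 members did not overlap, which held for 22.9% of all genes. *Ldb1* was 263, 254, 229, 213 and 228 CPM in WT and 269.5, 315, 359, 301 and 341 CPM in null libraries, without overlap (0.41, SE 0.08, edgeR adjusted p = 0.000385). *Lmo2*, its partner in the bridge between GATA1 and TAL1, was 209, 203, 189.9, 187 and 176 CPM in WT and 214, 241, 266, 259 and 237 CPM in null libraries (0.33, SE 0.07, edgeR adjusted p = 0.000962). For both genes all 5 null libraries lay above all 5 WT libraries.

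*Hemgn* was lower in null cells before any DMSO, with 41.4, 41.9, 44.3, 43.8 and 46.2 CPM in WT and 30.5, 31.1, 24.4, 25.6 and 32.5 CPM in null libraries (-0.60, SE 0.08, edgeR adjusted p = 2.13e-05). *Zfpm1* was also lower (-0.35, SE 0.09, edgeR adjusted p = 0.00825), with overlapping groups. With all 30 libraries in one fit, *Ldb1* and *Hemgn* were called and *Lmo2* and *Zfpm1* were not (edgeR adjusted p = 0.0743 and 0.321), at log2 fold changes of 0.33 and -0.34. That fit called 1584 of 14702 genes, against 4642 of 12912. *Gata1* and *Tal1* had 95% intervals of the log2 difference from -0.13 to 0.14 and from -0.12 to 0.11, so these 2 factors, like *Klf1*, started from close levels.

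At day 2 *Klf1* was lower in null cells, with groups that did not overlap. WT libraries had 289, 279.8, 306, 337 and 292 CPM and null libraries 149, 245, 152, 132 and 198 CPM, with a log2 fold change of -0.82 (SE 0.16, edgeR adjusted p = 0.00489). Null replicates 2 and 5, the 2 highest, were the ones that stood apart; without them the value was -1.11 (edgeR adjusted p = 3.03e-05), and without WT replicates 1 and 2 it was -0.87 (edgeR adjusted p = 0.0351). In all, 4 of 10 members were called, with 31.8% of all genes tested called.

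*Zfpm1* and *Lmo2* were called in all 10 fits that left out a single library and under all 7 other settings of the tool, filter, scaling, block or samples fitted. They and *Hemgn* were not called when WT replicates 1 and 2 were both left out, a fit in which 738 of 13508 genes were called, against 4151 of 13053 with all libraries. *Zfpm1* was 296 and 282 CPM in WT replicates 1 and 2 and 117, 129.6 and 127 CPM in replicates 3 to 5, against 93.2, 122, 79.1, 76.8 and 83.5 CPM in null libraries (-1.12, SE 0.28, edgeR adjusted p = 0.0108). Without WT replicates 1 and 2 its difference was -0.49 and was not called (edgeR adjusted p = 0.0818). *Lmo2* was higher in null cells by 0.65 (SE 0.15, edgeR adjusted p = 0.00782) and by 0.50 without those 2 libraries (edgeR adjusted p = 0.0777). *Hemgn* was lower (-0.41, SE 0.15, edgeR adjusted p = 0.0462), a call kept in 1 of 10 fits that left out a single library, and stood at -0.35 without WT replicates 1 and 2 (edgeR adjusted p = 0.183). *Tal1* stood at 257 ± 31.4 CPM in WT and 255 ± 72.9 CPM in null cells at day 2, with an interval of the log2 difference from -0.43 to 0.30.

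Within Abcb10-null cells all 10 members were called between days 0 and 5 (67.2% of all genes tested), 5 as higher and 5 as lower, against 33.9% and 33.3% of all genes. *Tal1* rose by 1.37 (SE 0.10) and *Hemgn* by 2.46 (SE 0.15), and for both the larger share of the gain came by day 2, at 1.25 (SE 0.16) and 2.04 (SE 0.15). Between days 2 and 5 the null cells added 0.14 (SE 0.18) and 0.44 (SE 0.18) on the log2 scale, and neither was called. *Nfe2* rose by 0.26 (SE 0.09, edgeR adjusted p = 0.0135), *Zfpm1* by 1.12 (SE 0.11) and *Gfi1b* by 0.63 (SE 0.12).

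*Klf1* fell by 1.14 on the log2 scale in null cells (SE 0.09, edgeR adjusted p = 9.58e-09), with most of the change by day 2 (-0.92, SE 0.16). *Gata1* took another course, rising to 347 ± 65.9 CPM at day 2 (0.43, SE 0.12, edgeR adjusted p = 0.0116) and falling to 210.5 ± 37.4 CPM at day 5 (-0.72 against day 2, SE 0.15, edgeR adjusted p = 0.00325), under its day 0 level of 262 ± 16.99 CPM. *Lmo2* fell by 1.76 (SE 0.08) and *Ldb1* by 0.85 (SE 0.10), and *Bcl11a* fell by 1.20 (SE 0.17, edgeR adjusted p = 1.43e-05). Between days 0 and 2 there were 8 calls (43.1% of all genes), and between days 2 and 5 there were 5 (31.0% of all genes).

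The interaction of genotype and day tested whether the courses differed. Between days 0 and 5 it called 5 members, all with a log2 change that was lower in null cells than in WT. Of all genes, 31.5% were called, and 14.7% in that direction. The interaction was -1.49 for *Klf1* (SE 0.14, edgeR adjusted p = 4.00e-08), -1.36 for *Tal1* (SE 0.16), -1.11 for *Nfe2* (SE 0.15), -1.004 for *Hemgn* (SE 0.22) and -0.66 for *Gata1* (SE 0.15, edgeR adjusted p = 0.00127). For *Klf1* and *Gata1* the directions were opposite, each rising by 0.36 in WT and falling by 1.14 and 0.31 in null cells. For *Tal1*, *Nfe2* and *Hemgn* both genotypes rose and the null cells rose less.

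The split over time differed between the genes. By day 2 the interaction was called for *Klf1* alone (-0.79, SE 0.18, edgeR adjusted p = 0.00529; 22.8% of all genes), while that of *Tal1* was -0.01 (SE 0.19). Between days 2 and 5 it was called for *Tal1* (-1.36, SE 0.24), *Hemgn* (-1.26, SE 0.25), *Nfe2* (-0.91, SE 0.17) and *Gata1* (-0.91, SE 0.19, edgeR adjusted p = 0.0102), 4 of 10 members where 4.71% of all genes were called. *Klf1* had -0.72 in that interval (SE 0.21, edgeR adjusted p = 0.0535). The *Klf1* term stayed uncalled in only 3 of 7 alternative settings, and the edgeR or DESeq2 adjusted p over these 7 ran from 0.00971 to 0.0926. Without WT day 2 replicates 1 and 2, the *Gata1* term was -0.81 and missed the threshold (edgeR adjusted p = 0.0654), in a fit that called 166 of 15205 genes. The courses of *Lmo2*, *Ldb1*, *Gfi1b* and *Zfpm1* between days 0 and 5 had interactions from -0.15 to 0.14 that were not called, and *Bcl11a* had -0.72 (SE 0.37).

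**Figure D3:**
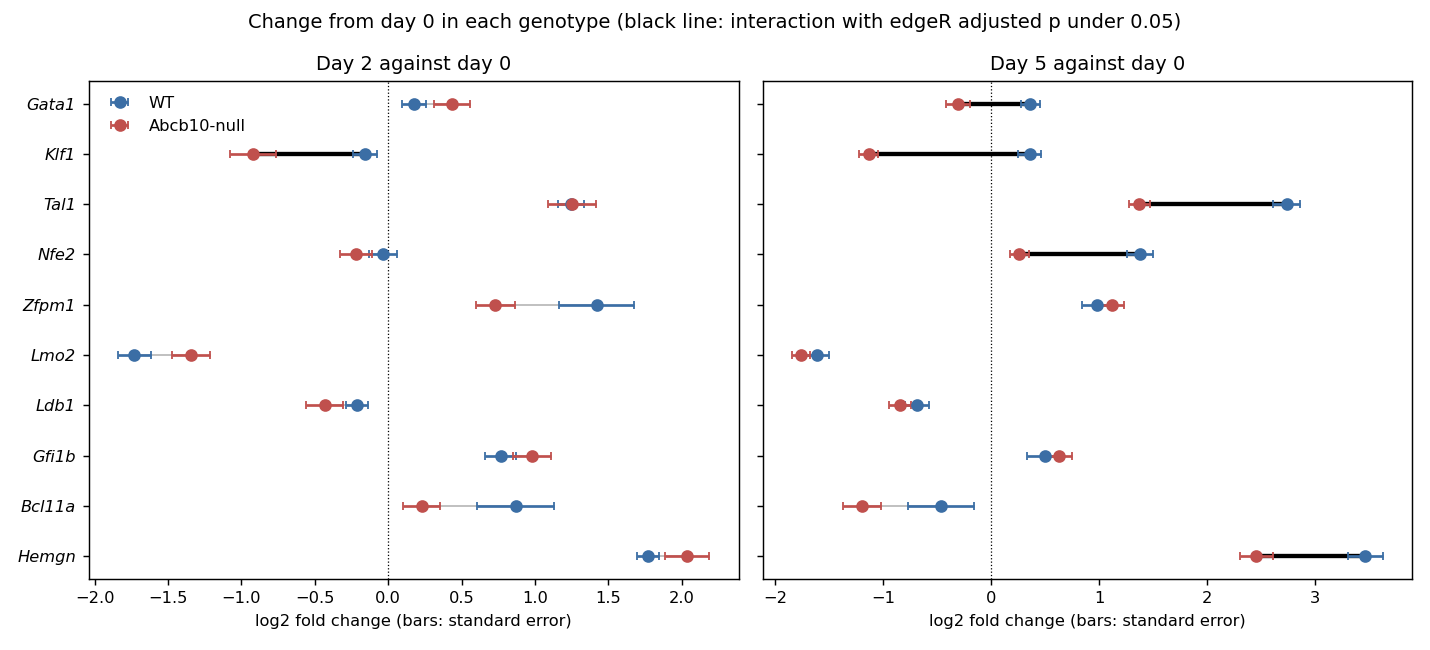
log2 fold change from day 0 to day 2 (left) and to day 5 (right) of each gene in WT (blue) and Abcb10-null cells (red), with bars of 1 standard error; a black line joins the genotypes where the interaction was called. At day 2 the black line is at *Klf1* alone, and at day 5 at *Gata1*, *Klf1*, *Tal1*, *Nfe2* and *Hemgn*.

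Genes whose products work with the 10 factors were counted from lists. Of 18 tested partners and corepressors, 4 were higher and 1 was lower in null cells at day 5, with a median log2 difference of -0.05, so 5 of 18 were called where 37.6% of all genes were. *Lmo4*, which competes with LMO2 for LDB1, was 69.3 ± 9.59 CPM in null and 29.4 ± 3.93 CPM in WT cells (1.23, SE 0.13, edgeR adjusted p = 2.05e-05). *Kdm1a*, the demethylase recruited by GFI1B, was higher by 0.43 (SE 0.08), and *Tcf12*, an E-protein partner of TAL1, by 0.39 (SE 0.13, edgeR adjusted p = 0.0309). The corepressor gene *Cbfa2t2* was lower (-0.56, SE 0.20, edgeR adjusted p = 0.0452). In WT cells between days 0 and 5, 8 of these genes rose and 7 fell, where 71.2% of all genes were called. They were led by *Runx1* (2.06, SE 0.34) and *Cbfa2t3* (2.02, SE 0.35), with *Rcor1* at 0.94 (SE 0.19), and by *Hdac2* (-1.15, SE 0.09), *Tcf3* (-0.89, SE 0.20) and *Ssbp4* (-0.88, SE 0.18). *Gata2*, the GATA factor of earlier progenitors, lay at 0.642 to 1.42 CPM on average in the 6 groups, and no comparison between genotypes called it. *Runx1* was not called between genotypes at day 5 (-0.39, SE 0.31).

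Among NF-E2 partners and competitors, 1 of 7 tested was higher and 1 lower in null cells at day 5. In that comparison 37.6% of all genes were called. *Nfe2l1* was higher by 1.05 (SE 0.20, edgeR adjusted p = 0.00136) and *Nfe2l2*, which encodes NRF2, was lower (-0.71, SE 0.12, edgeR adjusted p = 0.000807). The small MAF partner *Mafk* was not called between genotypes (0.12, SE 0.15), nor was *Bach1*, a heme-binding repressor that competes for the same DNA sites (0.25, SE 0.10, edgeR adjusted p = 0.0617). In WT cells between days 0 and 5, 4 of 6 tested rose and none fell, where 71.2% of all genes were called. *Bach1* rose by 0.65 (SE 0.09), *Nfe2l2* by 0.61 (SE 0.10) and *Mafg* by 0.48 (SE 0.17).

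Of 8 tested Kruppel-like genes, 1 was called between genotypes at day 5, where 37.6% of all genes were. It was *Klf3*, a repressor that binds CACCC boxes and is switched on by KLF1, at 63.3 ± 34.3 CPM in WT and 19.4 ± 4.81 CPM in null cells (-1.72, SE 0.30, edgeR adjusted p = 0.000765). In WT cells 6 of the 8 rose and 1 fell between days 0 and 5, where 71.2% of all genes were called. *Klf3* rose by 2.52 (SE 0.31) and *Klf6* by 2.19 (SE 0.17) between days 0 and 5, with *Klf5* at 1.10 (SE 0.37) and *Klf16* at -0.41 (SE 0.17). All 10 tested genes on a list of other red cell regulators were called at day 5, 4 as higher and 6 as lower in null cells. Of all genes, 19.8% were called as higher and 17.8% as lower there. *Sox6*, which represses embryonic globin, was lower (-2.35, SE 0.34), *Foxo3* (-1.09, SE 0.29) and the cell cycle regulator *E2f2* (-0.98, SE 0.19). *Id1*, an inhibitor of helix-loop-helix proteins, was higher by 1.39 (SE 0.27), *Stat5a* by 0.75 (SE 0.16) and *Stat5b* by 0.60 (SE 0.14). In WT cells 5 of the 10 rose and 5 fell between days 0 and 5, where 36.5% and 34.7% of all genes did. Those that rose included *Sox6* (3.37, SE 0.31), *Foxo3* (3.32, SE 0.30) and *E2f2* (0.996, SE 0.14). Those that fell included *Id1* (-3.02, SE 0.23), *Stat5a* (-1.81, SE 0.16) and *E2f4* (-0.95, SE 0.13).

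Genes that these factors are known to act on moved in both directions. Of 29 tested genes activated in red cell development, 22 were lower and 2 higher in null cells at day 5. Their median log2 difference was -0.98, and 17.8% of all genes were called as lower and 19.8% as higher. *Slc4a1*, the band 3 anion exchanger, was 516 ± 160.5 CPM in WT and 59.4 ± 35.0 CPM in null cells (-3.13, SE 0.40), *Tfrc*, the transferrin receptor, was lower (-3.09, SE 0.33) and *Rhd*, a blood group protein (-2.40, SE 0.28). At day 0 the list had 9 lower and 4 higher of 28 tested, where 36.0% of all genes were called, and at day 2 it had 14 lower and 2 higher of 29, where 31.8% were. The 2 that were higher at day 5 were *Car1*, a carbonic anhydrase, (1.37, SE 0.22) and *Xpo7* (0.69, SE 0.11). In WT cells 24 of the 29 rose and 3 fell between days 0 and 5, where 36.5% and 34.7% of all genes did. *Slc4a1* went from 0.242 ± 0.195 CPM, with no count in some libraries, to 516 CPM. Others that moved were *Alas2*, the first enzyme of heme synthesis in red cells (5.92, SE 0.18), *Car1* (-5.17, SE 0.20), *Icam4* (-0.63, SE 0.18) and *Slc25a38* (-0.45, SE 0.17).

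Of 7 tested genes repressed by GATA1 complexes, 4 were higher in null cells at day 5 and none was lower. Their median log2 difference was 0.84, and 19.8% of all genes were called as higher and 17.8% as lower. In WT cells 6 of the 7 fell between days 0 and 5 and none rose, where 34.7% of all genes fell. *Myb* was 38.8 ± 11.8 CPM in null and 8.81 ± 3.80 CPM in WT cells (2.13, SE 0.27), *Spi1*, which encodes PU.1, was higher by 1.38 (SE 0.18) and *Myc* by 0.84 (SE 0.13). The 3 named genes were among these, *Myb* (-4.82, SE 0.22), *Spi1* (-2.47, SE 0.13) and *Myc* (-1.21, SE 0.14). The 3 globin genes that could be tested were lower in null cells: *Hbb-bt* (-2.58, SE 0.36), *Hbb-bs* (-2.35, SE 0.24) and *Hba-a1* (-1.995, SE 0.28). They are near-identical within each cluster, and globin RNA was removed before sequencing, so their counts are what the depletion left. All 3 also rose in WT cells between days 0 and 5, *Hba-a1* by 6.42 (SE 0.26), *Hbb-bs* by 6.35 (SE 0.20) and *Hbb-bt* by 3.08 (SE 0.27).

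**Figure D4:**
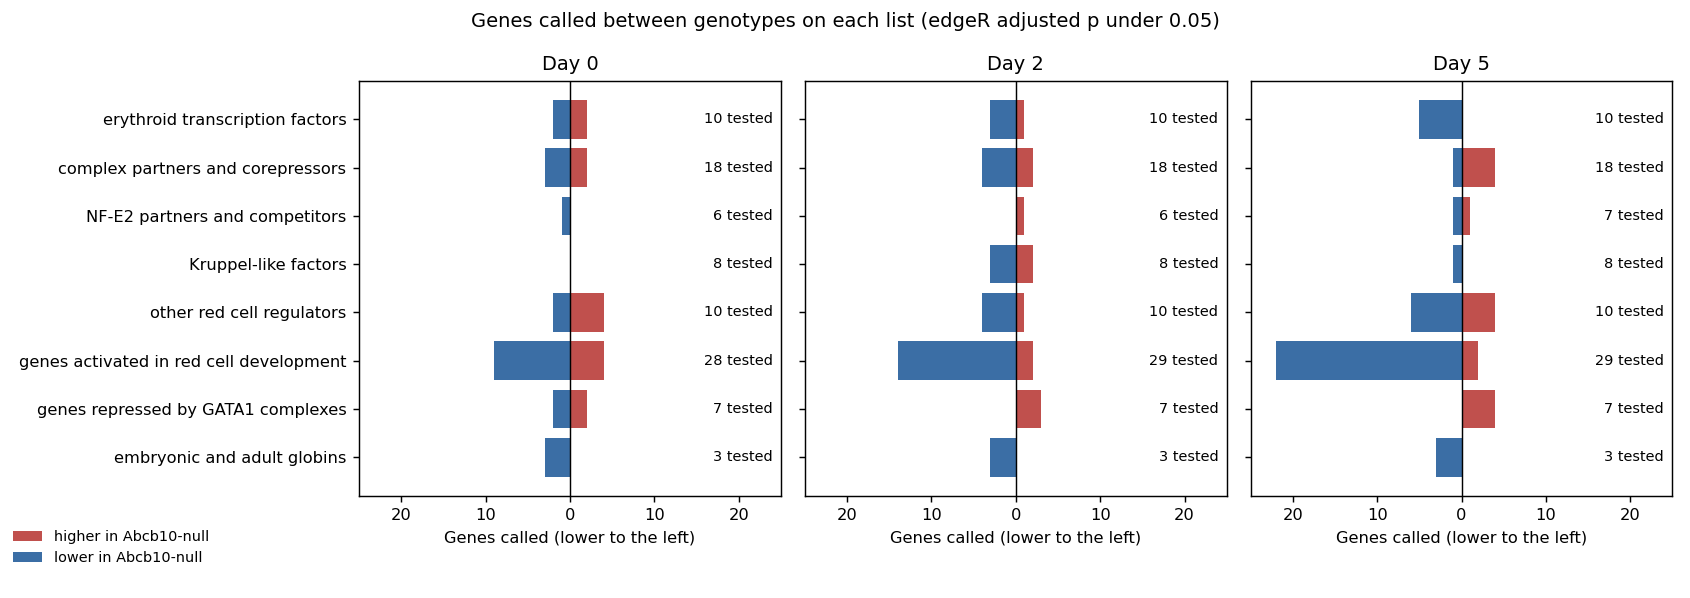
Number of genes on each list called higher (red, to the right) or lower (blue, to the left) in Abcb10-null against WT cells at days 0, 2 and 5, with the number tested written at the right. At day 5 the bar of genes activated in red cell development reaches 22 lower and 2 higher, and that of the 10 transcription factors 5 lower and 0 higher.

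The genes most like each factor over the 30 libraries were found by Pearson correlation of log2(CPM + 0.5), a description that carries the differences between groups. *Hemgn* went with *Fam210b* (r = 0.98) and *Apol11b* (0.98), and *Tal1* with *Gypc* (0.98), *Rnf6* (0.98) and *Hemgn* itself (0.98). With the group means removed, *Tal1* and *Hemgn* had r = 0.80 over the 30 libraries. That was the highest value among pairs of members, and the lowest was -0.77 for *Lmo2* and *Bcl11a*. *Klf1* had -0.64 with *Tal1* and -0.58 with *Hemgn*. Libraries that stood apart from their groups enter these values. *Tal1* and *Hemgn* were both lowest, and *Klf1* highest, in null replicates 2 and 5 at day 2. WT replicates 1 and 2 at day 2 were lowest for *Lmo2* and highest for *Bcl11a*. Correlations without those libraries were not computed. *Lmo2* was most like *Arcn1*, *Ptprcap* and *Acot9* (0.97, 0.97 and 0.96), and *Zfpm1* like *Fbrsl1*, *Rab11fip3* and *Sbf1* (0.96 for each). *Klf1* was most like *Olfm1* (0.94), *Copz1* (0.90) and *S100a10* (0.89). *Nfe2* was nearest to *Asb1*, *Arhgap45* and *Dnajb4* (0.92 to 0.93), *Ldb1* to *A530010L16Rik*, *Dnajc22* and *Ctse* (0.92 for each), *Gfi1b* to *Mpp1*, *Hecw1* and *Cacna1c* (0.87 to 0.89), and *Bcl11a* to *Khdrbs1*, *Dgcr8* and *Ftx* (0.85 to 0.87). *Gata1* had weaker matches, *Pms2* at 0.78 and *Nme7* at 0.77.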

How the data were processed

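Ribosomal and globin RNA were depleted and stranded libraries were made from total RNA of WT and Abcb10-null MEL cells. Adapters were trimmed, reads were aligned to GRCm38 with STAR 2.6.1b and assigned to Ensembl genes with featureCounts 1.6.3, whose strand setting is not given in the sources used here. The deposited values are the authors' counts per gene, without normalization, for 54532 genes (9219 of them at 0 counts throughout). Gene symbols, positions and exon lengths were taken from the GENCODE annotation of GRCm38, and 37 identifiers were not in it. Library totals were 9906783 to 20157768 counts with a median of 16492116.5, and replicates differed by more than counting error (chi-square per degree of freedom at least 6.23 over 60 pairs), so errors come from the spread between libraries.

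Groups and replicate numbers came from the labels. The tests ran in edgeR 4.0.16 under R 4.3.3 (TMM, filterByExpr, glmQLFit, glmQLFTest), each fit holding only the libraries of the groups compared, and p-values were adjusted by Benjamini-Hochberg over every gene in the fit. The standard error is the absolute log2 fold change over the square root of F. The 12 comparisons were Abcb10-null against WT at each day, each pair of days in each genotype, and the interaction at each pair of days. CPM values are counts over TMM-scaled library sizes of all 30 libraries. Steps were tested on simulated data.

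All 10 members were reported, with *Abcb10* as the check of the labels, *Gata2*, *Runx1*, *Mafk*, *Bach1* and *Klf3*, on each of 7 lists the 3 called genes with the largest rise and the 3 with the largest fall and a mean of at least 1 CPM (null against WT at day 5, and WT day 5 against day 0), and the 3 genes most like each member. A few genes that this rule names are not reported here. The members and lists were chosen with earlier results of these data known, and the count of a list is a description.

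Alternatives were DESeq2 1.42.0, its size factors in edgeR, all genes with at least 1 count, a minimum of 10 counts in all libraries, all 30 libraries in one fit, removal of globin, mitochondria-encoded and small RNA genes, the replicate number as a block, and each library left out in turn. Leaving out WT day 5 replicates 2 and 5, WT day 2 replicates 1 and 2, or Abcb10-null day 2 replicates 2 and 5 was added after seeing the data.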

Additional observations from a re-analysis of the deposited data

Results flagged for a closer look

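Within groups of 5 libraries, 5 of 60 sets of values had a library further from its neighbour than 0.71 of the group's range, which chance gives in about 1 in 20 groups. *Klf1* was lowest in WT day 5 replicate 2, at 327.7 CPM against 442 CPM for the next library. *Bcl11a* was highest in the same library, at 30.35 CPM against 11.6 CPM. *Hemgn* was lowest in WT day 5 replicate 5, at 295.1 CPM against 512 CPM. *Ldb1* was highest in WT day 2 replicate 2, at 218.2 CPM against 204 CPM, and *Nfe2* was lowest in Abcb10-null day 2 replicate 2, at 38.24 CPM against 53.0 CPM.

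The effect of day differed between genotypes in 10 of 30 interaction tests by edgeR at an adjusted p under 0.05. Between days 0 and 5 the difference on the log2 scale was -1.488 for *Klf1*, -1.359 for *Tal1*, -1.109 for *Nfe2*, -1.004 for *Hemgn* and -0.662 for *Gata1*. Between days 2 and 5 it was -1.362 for *Tal1*, -1.258 for *Hemgn*, -0.9148 for *Nfe2* and -0.9146 for *Gata1*. Between days 0 and 2 it was -0.7863 for *Klf1*.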

How the results depend on the processing

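The 5 day 5 calls between genotypes (*Klf1*, *Tal1*, *Hemgn*, *Nfe2*, *Gata1*) and the 5 interaction calls between days 0 and 5 were kept in all 7 alternatives and in every fit without 1 library. Without single libraries the number of members called ranged from 4 to 4, 3 to 4 and 5 to 6 between genotypes at days 0, 2 and 5, from 3 to 7 in null cells between days 2 and 5 (5 with all libraries), and from 1 to 3 in the interaction of days 0 and 2 (1 with all libraries). With all 30 libraries in one fit the counts were 2 in place of 4 between genotypes at day 0, where 66.2% of 1584 called genes were higher (54.9% of 4642 otherwise), and 7 in place of 4 in the interaction of days 2 and 5, where 1705 of 14702 genes were called (4.71% of genes otherwise). With all genes of at least 1 count the interaction of days 0 and 2 had 3. The replicate block gave 3 in place of 5 in null cells between days 2 and 5 and 2 in place of 1 in the interaction of days 0 and 2. Over 75 same-numbered pairs of libraries, the correlation of deviations ran from -0.396 to 0.517 (median -0.025, 17 over 0.1). Pairs with different numbers were not computed beside them, so these values do not settle whether the numbers pair the libraries. Without WT day 2 replicates 1 and 2, 1 member in place of 4 was called between genotypes at day 2, beside 738 of 13508 genes (31.8% otherwise). Without Abcb10-null day 2 replicates 2 and 5, there were 4 in place of 1 in the interaction of days 0 and 2, beside 5779 of 14585 genes (22.8% otherwise). The cause of these moves was not tested. DESeq2 size factors moved the median of all genes by under 0.1.

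Signs turned only for differences that were not called. Between genotypes at day 0, *Gata1* was -0.01271 with DESeq2, -0.01263 with its size factors and -0.00229 without globin, mitochondria-encoded and small RNA genes, *Klf1* was -0.005806 and -0.005791 with the first 2 of these, and *Tal1* was 0.003244 with genes of at least 1 count, 0.001681 with at least 10 counts, 0.006668 with all 30 libraries in one fit and 0.001273 with the replicate block. *Nfe2* in WT cells between days 0 and 2 was 0.006353 with at least 10 counts and 0.003339 without the globin, mitochondria-encoded and small RNA genes. Without WT day 2 replicates 1 and 2, *Tal1* was 0.077, *Gfi1b* 0.025 and *Bcl11a* 0.062 between genotypes at day 2, *Zfpm1* 0.096 and *Lmo2* -0.11 in WT cells between days 2 and 5, and *Tal1* 0.099 in the interaction of days 0 and 2. Without Abcb10-null day 2 replicates 2 and 5, *Tal1* was 0.20 and *Gfi1b* 0.046 between genotypes at day 2, *Klf1* 0.095 and *Tal1* -0.13 in null cells between days 2 and 5, *Tal1* 0.22 in the interaction of days 0 and 2 and *Bcl11a* 0.0099 in that of days 2 and 5. Without WT day 5 replicates 2 and 5, *Gfi1b* was 0.080 and *Bcl11a* 0.35 in the interaction of days 2 and 5. Leaving out single libraries turned signs within the ranges -0.056 to 0.048 for *Gata1*, -0.037 to 0.045 for *Klf1* and -0.048 to 0.0078 for *Tal1* between genotypes at day 0, -0.17 to 0.061 for *Tal1* and -0.14 to 0.0074 for *Gfi1b* at day 2, -0.18 to 0.044 for *Gfi1b* at day 5, -0.11 to 0.030 for *Nfe2* in WT cells between days 0 and 2, -0.16 to 0.10 for *Tal1* in the interaction of days 0 and 2, and -0.12 to 0.11 for *Gfi1b* and -0.26 to 0.45 for *Bcl11a* in that of days 2 and 5.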
